A study of Mus musculus with 6 samples.

Results

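Collagen genes were followed in liver RNA of old mice with and without Itpr2, an endoplasmic reticulum channel that releases calcium. They were taken as every gene whose symbol starts with Col, a number, the letter a and a number. Probes were named from the accession in their SystematicName column. This gave 44 genes on 64 of the 39429 probes of the array, after control spots were left out. Of the 44 genes, 11 were fibrillar collagens, 6 were the type IV collagens of basement membranes and 27 belonged to other types.

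Livers came from 3 C57Bl/6 wild-type mice (WT 1, WT 2 and WT 3) and 3 Itpr2 KO mice (KO 1, KO 2 and KO 3). All 6 mice were 23 months old, were kept in a pathogen-free facility on standard diet and water in a cohort followed for survival, and received no treatment. The design text describes the animals as independent. The labels name the knockout without giving the allele, the promoter of any recombinase or the deleted exons. Total RNA of snap-frozen, cryoground liver was labelled with Cy3 and hybridised to 1-colour Agilent arrays. Whole liver was used, so fewer cells of a type and less RNA per cell cannot be told apart.

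Collagens are extracellular matrix proteins whose alpha chains wind into a triple helix. Fibrillar types such as I and III form the cables that accumulate in liver scars, and in the liver they are made mainly by stellate cells and portal fibroblasts. Type IV collagen instead forms sheet-like networks under epithelia and along vessels, type VI forms beaded filaments, and FACIT collagens sit on the surface of fibrils. Chains of a trimer are made from separate genes, so their transcripts are often examined together.

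The regulatory windows of Col1a2 and Col3a1 are shown because their levels varied together with Col1a1 across the 6 arrays, as described further on. Each window holds the 250 bases before the annotated transcription start, 5′ to 3′ on the coding strand, from RefSeq on GRCm38.p6, with capitals marking motif matches. The Col1a2 window is chr6:4505368-4505617 on the plus strand and the Col3a1 window is chr1:45311288-45311537 on the plus strand.
Col1a2: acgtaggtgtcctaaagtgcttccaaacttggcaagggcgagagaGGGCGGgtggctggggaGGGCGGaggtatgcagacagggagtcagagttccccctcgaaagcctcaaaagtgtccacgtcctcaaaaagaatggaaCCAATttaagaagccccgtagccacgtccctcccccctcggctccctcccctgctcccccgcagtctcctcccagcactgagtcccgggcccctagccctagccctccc
Col3a1: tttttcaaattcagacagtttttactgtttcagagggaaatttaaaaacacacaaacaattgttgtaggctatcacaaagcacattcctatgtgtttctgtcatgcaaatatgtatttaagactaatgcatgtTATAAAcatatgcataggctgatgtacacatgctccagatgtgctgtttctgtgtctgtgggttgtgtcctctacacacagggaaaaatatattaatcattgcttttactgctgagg
Both strands were searched for the CCAAT box by the letters CCAAT. The same was done for the GC box as GGGCGG and for the TATA motif as TATAAA, and no matches overlapped in these windows. Col1a2 held CCAAT at 109 to 105 bases before the start, and GGGCGG at 205 to 200 and at 188 to 183 bases before it. Col3a1 held TATAAA at 117 to 112 bases before the start and neither of the other motifs. RefSeq windows were matched for 35 of the 44 collagen genes, in 38 windows, and Col1a1 was among those without an entry. CCAAT was found in 13 of these 38 windows (34.21%) and in 33.85% of all 32851 windows. GGGCGG was found in 22 of 38 (57.89%, against 32.74% of all windows) and TATAAA in 5 of 38 (13.16%, against 12.37%). A match is a run of letters and not evidence of a bound factor.

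Each level is the log2 processed signal less the 75th percentile of its array, and a change is the knockout mean less the wild-type mean, both in log2 units. Probes differ in how brightly they report a transcript, so levels are compared between arrays and not between genes. Between 57.6% and 59.5% of probes were well above background, Feature Extraction's flag, on each array, and no spot was saturated. All 10 hepatocyte markers were well above background on all 6 arrays. Itpr2 was at 3.04, 3.07 and 3.08 in wild type and at 2.54, 2.38 and 2.20 in the knockout (limma adjusted p = 0.810). Whether its probe lies in the deleted part is not known here, so it checks the labels only in part. Muscle markers set WT 1 and KO 3 apart: all 14 were well above background on both arrays and 4 of 14 on each of the other 4. Their summed level ran from -1.43 to 6.95 in wild type and from -1.29 to 7.08 in the knockout, and Ckm, Myh4, Ttn and 7 others were not well above background on the other 4 arrays. The part of muscle tissue in the collagen values was not tested.

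Of the 44 collagen genes, 22 entered the fit, having a probe that cleared background on all 3 wild-type or all 3 knockout arrays. They were 6 fibrillar, 5 type IV and 11 other collagens, and 20 of the 22 were well above background on all 6 arrays. For 18 genes no probe cleared background on any of the 6 arrays. These were Col2a1, Col11a1 and Col24a1 of the fibrillar class, Col4a3 of type IV, and Col6a4, Col6a5, Col6a6, Col8a1, Col9a1, Col9a3, Col10a1, Col15a1, Col17a1, Col19a1, Col22a1, Col23a1, Col26a1 and Col28a1 of the other types. The other 4 genes were above background on some arrays only. Col11a2 passed on KO 1, Col25a1 and Col8a2 on KO 3, and Col5a2 on WT 3, KO 1 and KO 3.

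**Figure D1:**
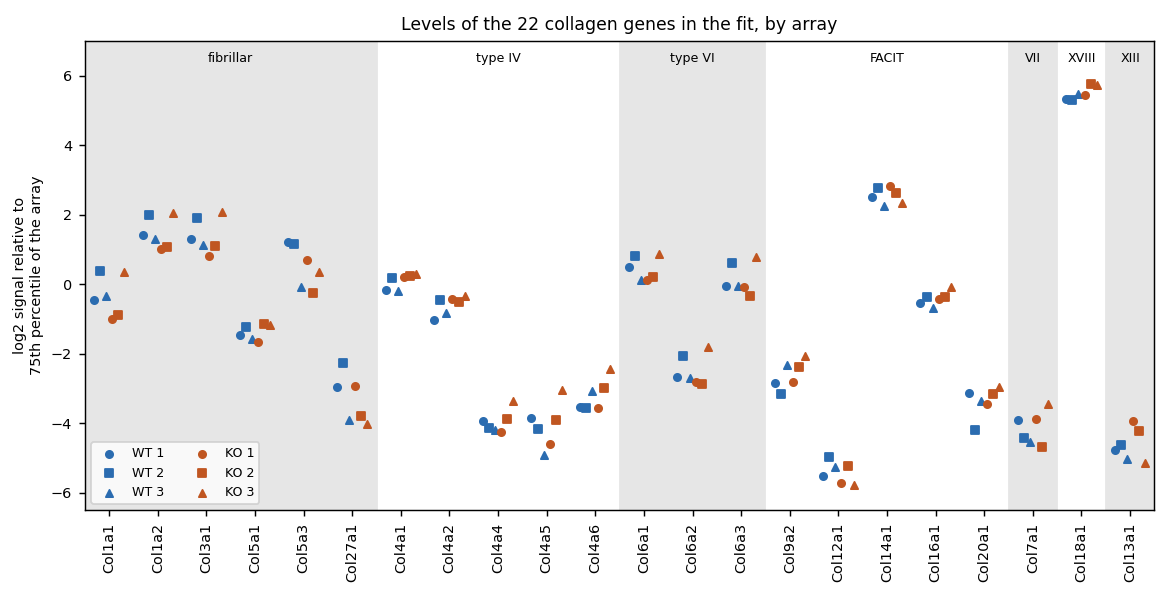
Level of each collagen gene in the fit, as log2 signal against its array's 75th percentile (vertical axis), with 1 point per array for 3 wild-type (blue) and 3 knockout (orange) mice. Levels of different genes come from different probes and are not comparable, and only Col4a1 shows all 3 knockout arrays above all 3 wild-type arrays.

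None of the 22 collagens passed the threshold of 0.05 on the adjusted p (limma, Benjamini-Hochberg over 17996 genes), against 1 gene of 17996 (0.00556%). Their adjusted p ran from 0.810 to 0.998. At an unadjusted limma p under 0.05 there were also 0 collagens, beside 1104 of 17996 genes (6.13%; 3.47% with the knockout higher and 2.66% lower). That count was 2 of 22 without WT 2, without KO 1 or without KO 3, and 1 of 22 without WT 3 or without KO 2. The share of all genes in those fits is not given here. The mean was higher in the knockout for 13 collagens and lower for 9, against 54.1% higher and 45.9% lower over all genes tested. The median change was 0.17 for the 22 collagens and 0.022 for all genes. Only Col4a1 had genotypes that did not overlap, with the knockout higher, a pattern seen in 6.90% of the 17880 genes with a value on all arrays. The opposite order was seen in 5.15% of them, and either order in 12.0%. By class, 1 of 6 fibrillar collagens was higher in the knockout (median -0.29), as were 5 of 5 type IV collagens (median 0.34) and 7 of 11 others (median 0.23). Over 17880 genes, KO 3 was the highest of the 6 arrays in 27.2%, and it was the highest in 14 of 22 collagens.

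**Figure D2:**
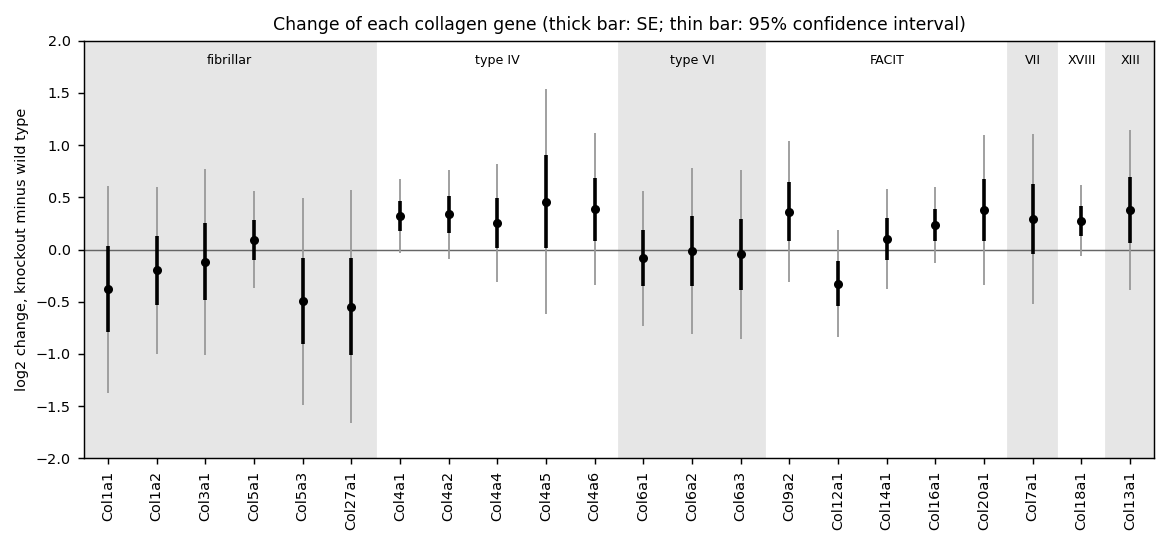
Log2 change from wild type to knockout (vertical axis) of each measured collagen (horizontal axis, by class), with the limma SE as a thick bar and the 95% confidence interval as a thin bar. Every interval includes 0, the 5 type IV points lie above 0 and 5 of 6 fibrillar points lie below it.

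Type I collagen, the main protein of liver scar fibrils, is built from chains of Col1a1 and Col1a2. Col1a1 was at -0.45, 0.39 and -0.35 in WT 1, WT 2 and WT 3, and at -1.00, -0.90 and 0.34 in KO 1, KO 2 and KO 3. WT 2 and KO 3 were the high arrays, and the genotypes overlapped. Its change was -0.38 ± 0.41 (SE; 95% interval -1.37 to 0.61; limma adjusted p = 0.874). Without KO 3 the change was -0.81 (limma adjusted p = 0.568), and without WT 2 it was -0.12. Col1a2 was at 1.40, 2.00 and 1.31 in wild type and at 1.01, 1.07 and 2.04 in the knockout, with the same 2 arrays highest. Its change was -0.20 ± 0.33 (SE; 95% interval -1.00 to 0.60; limma adjusted p = 0.923), and 0.013 without WT 2.

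Type III collagen, a homotrimer that copolymerises with type I in early scar, comes from Col3a1. It was at 1.30, 1.90 and 1.13 in wild type and at 0.81, 1.09 and 2.08 in the knockout, so WT 2 and KO 3 again stood above the rest. The change was -0.12 ± 0.37 (SE; 95% interval -1.01 to 0.77; limma adjusted p = 0.964). It was -0.49 without KO 3 and 0.14 without KO 1, and it was also positive without WT 2 or without KO 2, so single arrays turned its direction. Within slide 1, which holds WT 1, WT 2 and KO 1, the changes of Col1a1, Col1a2 and Col3a1 were -0.97, -0.70 and -0.79. Within slide 2, with WT 3, KO 2 and KO 3, they were 0.070, 0.24 and 0.45. Each slide has 1 array of one genotype, so these are values with no test.

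The remaining fibrillar genes in the fit were the type V chains and Col27a1. Type V chains, which regulate the diameter of type I fibrils, did not share an order of arrays. Col5a1 was at -1.47, -1.22 and -1.58 in wild type and at -1.68, -1.14 and -1.17 in the knockout, a change of 0.092 ± 0.19 (SE). Col5a3 was at 1.20, 1.16 and -0.088 in wild type and at 0.69, -0.27 and 0.36 in the knockout. The low wild-type array was WT 3, the genotypes overlapped, and the change was -0.50 ± 0.41 (SE; limma adjusted p = 0.850). Its within-slide values were -0.49 on slide 1 and 0.13 on slide 2. Col27a1, a fibrillar collagen best known from cartilage, was at -2.94, -2.26 and -3.89 in wild type and at -2.94, -3.79 and -4.01 in the knockout. Its arrays overlapped too, and the change was -0.55 ± 0.47 (SE; 95% interval -1.67 to 0.57; limma adjusted p = 0.851). With single arrays left out, Col27a1 ran from -0.98 (without WT 3) to -0.16 (without WT 2), and Col5a3 from -0.92 (without WT 3) to -0.23 (without KO 2).

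As a class, the fibrillar collagens had a median change of -0.29. It was -0.51 without KO 3 and -0.053 without WT 2. The slides gave -0.59 (slide 1) and 0.19 (slide 2), and a fit blocked on slide gave -0.17. Without WT 1 and KO 3, the arrays with muscle transcripts, it was -0.44. The median of the 6 genes' deviations from their overall means was -0.077, 0.59 and -0.23 in WT 1, WT 2 and WT 3. It was -0.38, -0.44 and 0.39 in KO 1, KO 2 and KO 3. Both genotypes thus held 1 array well above the others.

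The markers of the cells that make fibrils did not all share an order of arrays. The 10 measured activated stellate and myofibroblast markers had a median change of 0.54, with 8 higher, 2 lower and 4 at an unadjusted limma p under 0.05. Over all genes 54.1% were higher and 6.13% were under that p. None of the markers passed the adjusted threshold. Acta2, smooth muscle actin, was at -0.42, -0.91 and -0.64 in wild type and at -0.34, 0.21 and 1.27 in the knockout. WT 2, a high array for Col1a1, was thus the lowest for Acta2. Tagln, Myl9, Cnn1 and Actg2 of this list were likewise lowest on WT 2 and highest on KO 3. Cdh11, Spp1, Ccn2 and Postn did not show both of these extremes. Timp1, of the same list, was instead highest on WT 2 (-1.66) and KO 3 (-1.96), as was Col1a1. The portal fibroblast markers Fbln2 (-1.26 and -0.34) and Dpt (-2.32 and -2.55) were also highest on these arrays. For Thy1, Eln, Entpd2, Msln, Pi16, Clec3b and Gas6 of that list, WT 2 was instead the lowest wild-type array. Mfap4 and Cd34 had WT 2 between the other wild-type arrays. Other markers are not given array by array here. The activated stellate and myofibroblast list had a summed level of 3.09 to 3.47 in wild type and 3.45 to 4.40 in the knockout. No array had Lox or Tnc clear of background. Portal fibroblast markers, 11 in the fit, had a median deviation of 1.10 in KO 3 and between -0.47 and 0.035 on the other arrays. Their summed level was 4.13 to 5.11 in wild type and 4.08 to 5.64 in the knockout. Stellate markers, 14 of 14 measured, summed to 6.07 to 6.28 in wild type and 6.18 to 6.97 in the knockout. The part of these cells in the collagen values was not tested.

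**Figure D3:**
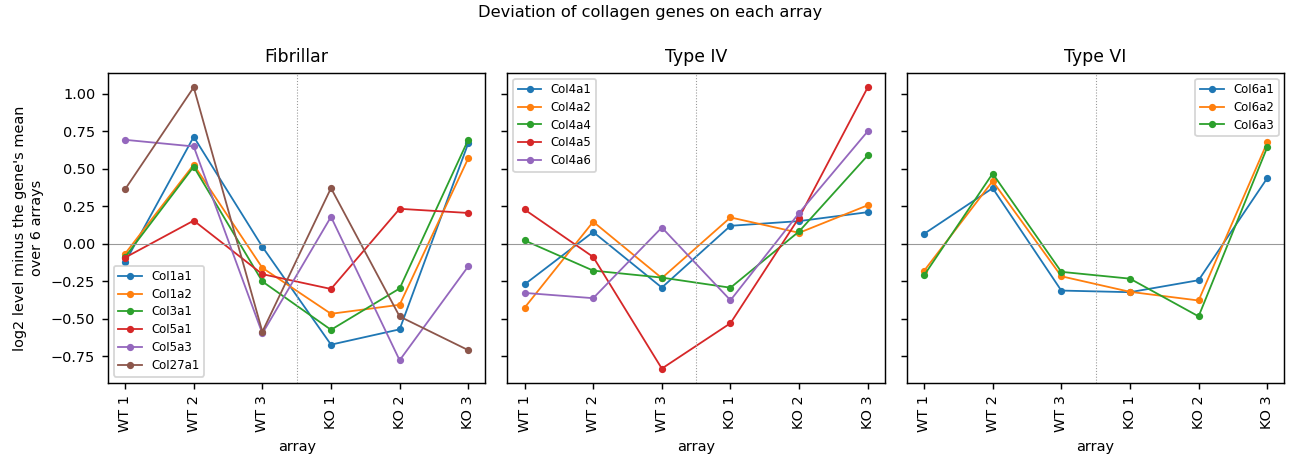
Deviation of each measured fibrillar, type IV and type VI collagen from its own mean over the 6 arrays, in log2 units (vertical axis), by array (horizontal axis), where lines join the values of a gene and imply no order. Col1a1, Col1a2, Col3a1 and the type VI genes are highest in WT 2 and KO 3, and each type IV gene is highest in KO 3.

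Type IV collagen is the network-forming collagen of basement membranes. Its widespread form is made from Col4a1 and Col4a2, which lie head to head on chromosome 8. Their annotated starts are 21 bases apart on opposite strands, and the RefSeq windows around them overlap by 78 bases. Col4a1 was at -0.18, 0.17 and -0.20 in wild type and at 0.21, 0.24 and 0.30 in the knockout. All knockout arrays lay above all wild-type arrays, with WT 2 only just below KO 1. The change was 0.32 ± 0.15 (SE; 95% interval -0.029 to 0.67), with an unadjusted limma p of 0.0665 and an adjusted p of 0.810. Col4a1 was read on 10 spots per array (9 on WT 2), whose SD was 0.055 to 0.076. The SD between mice was 0.21 in wild type and 0.046 in the knockout. Each array's level is the mean of its spots, so the SD of single spots and the SD between mice are not directly comparable. Within slides its change was 0.22 and 0.47, and it was 0.34 with the slide as a block.

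Col4a2 was at -1.02, -0.45 and -0.82 in wild type and at -0.42, -0.52 and -0.34 in the knockout. WT 2 lay among the knockout arrays, so the genotypes overlapped. The change was 0.34 ± 0.18 (SE; 95% interval -0.087 to 0.76; limma adjusted p = 0.810), with 0.32 on slide 1 and 0.39 on slide 2. The minor type IV chains belong to specialised membranes such as those of the kidney glomerulus. Col4a4 was at -3.94, -4.14 and -4.19 in wild type and at -4.25, -3.88 and -3.37 in the knockout, and Col4a6 at -3.52, -3.55 and -3.08 against -3.57, -2.99 and -2.44. In each, KO 3 was highest and KO 1 lowest. Their changes were 0.25 ± 0.24 and 0.39 ± 0.30 (SE; limma adjusted p = 0.861 and 0.840), and without KO 3 they were 0.022 and 0.11. Col4a5, which lies head to head with Col4a6 on the X chromosome with starts 1343 bases apart, had a change of 0.46 ± 0.45 (SE). Its levels were -3.85, -4.16 and -4.91 in wild type and -4.61, -3.90 and -3.04 in the knockout.

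Over the 5 type IV genes the median change was 0.34, and KO 3 was the highest array in 5 of 5. The median was 0.11 without KO 3, 0.46 without KO 1, -0.032 within slide 1, 0.47 within slide 2 and 0.17 without WT 1 and KO 3. KO 3 also had the highest summed level of 8 fat markers, 4.90, against 1.39 to 2.88 in wild type and 1.75 to 2.39 in the other knockouts, and Lep did not clear background on any of the 6. The part of fat tissue in the type IV values was not tested. Endothelial markers, of cells that lie beside basement membranes, had a median change of 0.12 over 12 genes. Hepatocyte markers were higher in 10 of 10 (54.1% over all genes), with a median of 0.27, and their median deviation was highest on KO 3, at 0.38. Kupffer cell markers were lower in 9 of 9 (45.9% over all genes), with a median of -0.55 and 4 at an unadjusted limma p under 0.05, and none passed the adjusted threshold. Their summed level ran from 7.11 to 8.10 in wild type and from 6.75 to 7.17 in the knockout, and that of the hepatocyte markers from 10.43 to 10.65 and from 10.63 to 11.13. The part of these cells in the collagen values was not tested either.

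Type VI chains, which form filaments around cells, had a negative change in 3 of 3 genes, with a median of -0.048. Col6a1 was at 0.50, 0.81 and 0.12 in wild type and at 0.11, 0.19 and 0.87 in the knockout, and Col6a3 at -0.063, 0.62 and -0.039 against -0.084, -0.34 and 0.79. WT 2 and KO 3 were the highest arrays of their genotypes in both. The changes were -0.084 ± 0.27 and -0.048 ± 0.34 (SE; limma adjusted p = 0.964 and 0.987). Leaving out WT 2, KO 1 or KO 2 made both changes positive, the largest being 0.18 for Col6a3 without KO 2. Col6a2 had a change of -0.014 ± 0.33 (SE), with levels of -2.66, -2.06 and -2.70 in wild type and -2.80, -2.86 and -1.81 in the knockout.

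Among the remaining types, Col18a1, a multiplexin of vessel and epithelial basement membranes that hepatocytes also make, was at 5.33, 5.30 and 5.46 in wild type and at 5.44, 5.76 and 5.72 in the knockout. KO 1 lay within the wild-type range and the other knockout arrays above it. The change was 0.27 ± 0.14 (SE; 95% interval -0.065 to 0.61; limma adjusted p = 0.810), 0.12 within slide 1 and 0.28 within slide 2. A second Col18a1 probe was at 4.49, 4.29 and 4.67 in wild type and at 4.28, 4.97 and 4.80 in the knockout, again with overlap.

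FACIT collagens, which coat fibrils, were higher in 4 of 5 genes with a median of 0.23. Col14a1 was at 2.50, 2.76 and 2.24 in wild type and at 2.84, 2.64 and 2.32 in the knockout, with full overlap. Its change was 0.098 ± 0.20 (SE; limma adjusted p = 0.940), and a second probe gave -0.17, so the probes disagree in direction. Col16a1 was at -0.53, -0.38 and -0.68 in wild type and at -0.42, -0.37 and -0.093 in the knockout. Only KO 1 fell inside the wild-type range, and the change was 0.23 ± 0.15 (SE; limma adjusted p = 0.826). Col12a1 was at -5.51, -4.97 and -5.24 against -5.72, -5.22 and -5.76, a change of -0.33 ± 0.21 (SE; limma adjusted p = 0.827), and was above background on 2 of 3 knockout arrays. Col9a2 and Col20a1 had changes of 0.36 ± 0.28 and 0.38 ± 0.30 (SE). The anchoring fibril gene Col7a1 had a change of 0.29 ± 0.34 (SE). The transmembrane Col13a1, above background on 2 of 3 knockout arrays, had one of 0.38 ± 0.32 (SE).

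Chains that assemble into the same trimer were set against each other over the 6 arrays, as 5 listed pairs. They had exact permutation of pairings and adjustment over the 5. Other chains well above background on all 6 arrays, such as Col5a1 with Col5a3 and Col4a5 with Col4a6, were not tested as pairs. The 5 pairs therefore do not stand for all collagen chains. Col1a1 and Col1a2 gave Pearson r = 0.986 (exact p = 0.00833, adjusted 0.0162) and Spearman rho = 0.886 (exact p = 0.0333, adjusted 0.0833). Without WT 2 and KO 3, the arrays farthest from the median, r was 0.945. Col6a2 and Col6a3 gave r = 0.988 (exact p = 0.00278, adjusted 0.0139) and rho = 0.943 (exact p = 0.0167, adjusted 0.0833), with r = 0.815 without those arrays. With any 1 array left out, r stayed at 0.979 to 0.998 for Col1a1 and Col1a2 and at 0.980 to 0.994 for Col6a2 and Col6a3. Fewer arrays leave fewer pairings, so the exact p can rise without a fall in r. Without WT 2 alone the adjusted exact p of the 5 pairs was 0.0625 to 0.125, and likewise 0.0625 to 0.125 without KO 3. Without KO 1 it was 0.0625 to 0.1, so no pair passed 0.05 when any of these 3 arrays was left out.

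In the other 3 pairs r fell further when 2 arrays were left out. They also failed 0.05 without WT 1 (adjusted exact p = 0.0625 to 0.075) or without WT 3 (adjusted exact p = 0.0556 to 0.0833), again with fewer pairings. Without KO 2 the pair of Col6a1 and Col6a3 failed as well (adjusted exact p = 0.117). Col4a1 and Col4a2 gave r = 0.943 (exact p = 0.0236, adjusted 0.0295) and rho = 0.771 (exact p = 0.103, adjusted 0.128), and r was 0.503 without WT 1 and WT 3. Col6a1 and Col6a2 gave r = 0.931 (exact p = 0.00972, adjusted 0.0162) and rho = 0.829 (exact p = 0.0583, adjusted 0.0972), and r was 0.570 without WT 2 and KO 3. Col6a1 and Col6a3 gave r = 0.898 (exact p = 0.0361, adjusted 0.0361) and rho = 0.714 (exact p = 0.136, adjusted 0.136), with 0.144 without those arrays. No rank correlation passed after adjustment, and each slide has 3 arrays, too few to recompute a correlation within it.

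**Figure D4:**
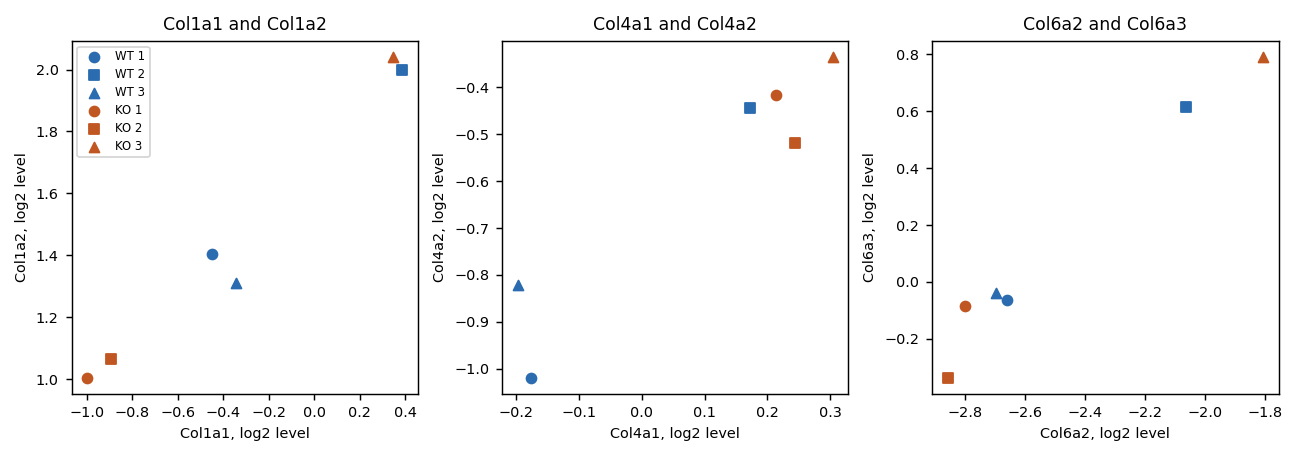
Log2 levels of both chains of 3 collagen pairs, 1 chain per axis and 1 point per array, with wild type in blue and knockout in orange. WT 2 and KO 3 are the highest arrays for Col1a1 with Col1a2 (r = 0.986) and for Col6a2 with Col6a3 (r = 0.988), while WT 1 and WT 3 are the lowest for Col4a1 with Col4a2 (r = 0.943).

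Likeness to Col1a1 and Col4a1 was described by Pearson r over the 6 arrays, among 17879 other genes, with no test. For Col1a1, Col1a2 was at 0.986 (rank 2) and Col3a1 at 0.954 (rank 35). Col6a2, Col6a3 and Col6a1 were at 0.934, 0.927 and 0.894 (ranks 64, 74 and 135), whereas Col4a1 was at 0.107. The 3 genes outside the collagens most like Col1a1 were Sf3b3 (0.998), Tmem45a (0.984) and Haus8 (0.983). For Col4a1, Col4a2 was at 0.943 (rank 27) and Col16a1 at 0.856 (rank 175). The other type IV chains in the fit, Col4a4, Col4a5 and Col4a6, were at 0.410, 0.490 and 0.348. The most alike to Col4a1 outside the collagens were Sik2 (0.988), Jam3 (0.985) and Exoc6b (0.979). These are descriptions over 6 arrays that share their scaling.

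Genes that process and bind collagen were listed by role, and 0 of the measured members passed the adjusted threshold in any list (limma, 17996 genes). At an unadjusted limma p under 0.05 there were 5 of 83, beside 6.13% of all genes. Without KO 1 there were 11 of 83, and the share of all genes in that fit is not given here. Of 38 enzymes and carriers of collagen synthesis, 32 were in the fit, 15 higher and 17 lower, with a median change of -0.019. One had an unadjusted limma p under 0.05: P4ha1, a prolyl hydroxylase subunit, at -1.16, -1.05 and -1.25 in wild type and at -1.29, -1.87 and -1.58 in the knockout. Its change was -0.43 ± 0.18 (SE; limma adjusted p = 0.810), with all knockout arrays below wild type. Sec24d, a coat protein of export vesicles, and Fkbp14, a prolyl isomerase, had changes of -0.43 and -0.35.

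Of 17 degradation genes 13 were measured, 6 higher and 7 lower with a median of -0.059, among them the membrane collagenase Mmp14 at -0.41, Fap at 0.59 and Mmp15 at -0.35. Of 11 receptors 9 were measured, 7 higher and 2 lower, with a median of 0.098. Itga10, a collagen-binding integrin, was at -3.42, -3.32 and -3.62 in wild type and at -2.59, -3.24 and -2.77 in the knockout, a change of 0.59 ± 0.20 (SE). Mag, a lectin best known from myelin, had a change of -1.29 ± 0.51 (SE), and was above background on 2 of 3 knockout arrays. Its levels were -4.48, -2.74 and -4.42 in wild type, with WT 2 highest, and -5.28, -5.57 and -4.65 in the knockout. Both had an unadjusted limma p under 0.05, and the inhibitory receptor Lair1 had a change of -0.47.

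Fibril-binding proteins gave 9 higher and 4 lower of 13 measured, with a median of 0.056. Podn, a leucine-rich proteoglycan, was at -1.71, -1.91 and -1.79 in wild type and at -1.05, -1.45 and -1.10 in the knockout. These arrays did not overlap, and the change was 0.60 ± 0.15 (SE; limma adjusted p = 0.810). Bgn and Fn1, a proteoglycan and a glycoprotein that bind fibrils, had changes of -0.34 and 0.17. Partners of type IV collagen in basement membranes gave 11 higher and 5 lower of 16, with a median of 0.077. Lamb3, a laminin chain, was at -2.20, -1.04 and -2.09 in wild type and at -2.45, -2.81 and -3.26 in the knockout, with no overlap and a change of -1.06 ± 0.36 (SE). The laminin chain Lama5 had a change of 0.33.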

How the data were processed

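The deposited scanner tables of 6 arrays hold intensity values from Feature Extraction (Agilent). Its version is 11.5.1.1 according to the file headers and 10.7.3.1 according to the submitters' processing notes. Per the file headers that software subtracted background, and the deposited intensities are not scaled between arrays. The array design is on mm9 per the file headers, and no coordinate from it is used. The authors also deposited log2 values for 20644 probes, 20 collagen genes among them. In that matrix the KO 2 and KO 3 columns matched the scanner arrays KO 3 and KO 2 best (0.9997 and 0.9995). The scanner tables decided the names here.

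Processed intensities were put on a log2 scale and the array's 75th percentile was subtracted, without 1377 control spots per array and 818 outlier spots. Of 39429 probes, 28330 had 1 symbol and 11099 none, through a gene table of assembly GRCm38.p6. A probe entered the fit if well above background on all 3 arrays of a genotype, which left 22304 probes, and the probe of highest mean stood for its gene. Genotypes were compared with limma 3.58.1 in R 4.3.3 (lmFit, eBayes, two-sided, Benjamini-Hochberg over 17996 genes), tested on simulated data first. With 3 against 3 arrays the smallest two-sided p of an exact permutation is 0.1. The number of arrays limits the precision. Slides 1 and 2, which held both genotypes, were fitted as a block and taken separately. The alternatives, whose effect is given at the end, were other background corrections, scalings, filters, probe and spot rules, array weights, blocks, the authors' matrix and each array left out. Normexp used the median signal because the tables read here had no mean signal.

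The members and lists were chosen with earlier results of these data known. Genes given in full were, by rule, the 4 measured members of highest mean level and the 3 of smallest unadjusted p in each of the fibrillar, basement membrane and other classes, any member past the adjusted threshold, and any on opposite sides of background by genotype. From each partner list up to 3 members of smallest unadjusted p were named, and the 3 genes most like Col1a1 and Col4a1. Of the genes the rule takes, 1 has its values left out. Col4a5, Col5a1, Col6a2, Col7a1, Col9a2, Col13a1, Col20a1, the marker genes and the values of genes outside the fit were named after their values were seen.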

Additional observations from a re-analysis of the deposited data

How the results depend on the processing

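No collagen and no partner gene passed the adjusted threshold under any alternative run (limma), and the lowest adjusted p of a named collagen was 0.146, for Col4a4 and Col4a6 under normexp. At an unadjusted p under 0.05 normexp gave 9 of 22 collagens and 28 of 83 partners, trimmed normexp 2 and 6, and no background filter 3 of 44 collagens. Without WT 1 and KO 3 there were 2 and 10. The share of all genes under that p is not given for these runs, so the counts cannot be read as particular to collagens or partners. Each array left out in turn gave median changes of 0.021 to 0.20 for all collagens, -0.51 to -0.053 for fibrillar, 0.11 to 0.46 for type IV and 0.13 to 0.23 for other collagens. By gene these were -0.54 to 0.013 for Col1a2, -0.49 to 0.14 for Col3a1, -0.32 to 0.080 for Col6a1, -0.38 to 0.18 for Col6a3 and -0.032 to 0.24 for Col14a1. For the pairs r was 0.979 to 0.998 (Col1a1 and Col1a2), 0.927 to 0.969 (Col4a1 and Col4a2), 0.899 to 0.974 (Col6a1 and Col6a2), 0.827 to 0.949 (Col6a1 and Col6a3) and 0.980 to 0.994 (Col6a2 and Col6a3). Within slide 1 the median was -0.27 for all collagens and -0.032 for type IV, and within slide 2 it was 0.19 for fibrillar collagens. Normexp on median signals gave medians of 0.49 for all, 1.17 for type IV and 0.89 for other collagens. It reversed Col12a1 (1.20), Col14a1 (-0.55), Col18a1 (-0.47), Col27a1 (0.89) and Col6a3 (0.13). Its r was 0.756 for Col1a1 and Col1a2, 0.785 for Col4a1 and Col4a2, -0.274 for Col6a1 and Col6a2, 0.818 for Col6a1 and Col6a3 and 0.0762 for Col6a2 and Col6a3, with an adjusted p of 0.141 to 0.901. Under it the lower quartile of the corrected signal was 289 on KO 1 and 1066 on KO 2, against 60.3 to 68.3 on the other arrays. Normexp on trimmed signals, chosen after seeing the data, gave 0.20 for Col12a1, 0.042 for Col27a1 and 0.021 for Col6a3, and r of 0.641, 0.866 and 0.774 for the type VI pairs. Col14a1 was at -0.18 in the authors' matrix and -0.037 as a mean of probes; the cause was not tested. Leaving out WT 1 and KO 3 was also chosen after seeing the data. Replicate numbers did not pair the mice: same-numbered arrays correlated at -0.19, 0.042 and -0.28. With the replicate block, 0 collagens passed and the medians were -0.29 for fibrillar and 0.34 for type IV.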

Other observations

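Some collagen probes were dim except on a single array. Col5a2, the partner chain of Col5a1 in type V collagen, was at -6.85, -5.92 and -5.22 in wild type and at -5.26, -5.36 and -1.16 in KO 1, KO 2 and KO 3. It was well above background on WT 3, KO 1 and KO 3 and stayed outside the fit, so its high value on KO 3 has no test. Col8a2 was well above background on KO 3 alone, at -4.53, and between -7.25 and -6.09 elsewhere. Of 14 collagen genes with several probes, Col4a6, Col14a1, Col16a1, Col18a1 and Col20a1 had a second probe well above background on all 6 arrays. The second probes gave changes of 0.14 for Col4a6, 0.10 for Col16a1, 0.20 for Col18a1 and 0.61 for Col20a1, in the direction of the first probe, whereas Col14a1 gave -0.17 against 0.098.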
